A study of Mus musculus with 33 samples.

Results

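The 12 libraries described here, of 33 in the series, were chosen by their labels as all libraries collected 6 h (D0.25) and 18 h (D0.75) after paraxial mesoderm cells derived from mouse embryonic stem cells (mESCs) were placed in induction medium. At each time 3 libraries came from cells given CD1530, which activates the retinoic acid receptor γ, and 3 from cells given AGN 193109 (AGN), which acts on retinoic acid receptors as an inverse agonist and lowers their activity below its resting level. All 12 cultures also received TGFβ1, FGF2 and SAG, an agonist of the hedgehog pathway receptor Smoothened, and all started from a paraxial mesoderm step with the BMP inhibitor LDN-193189, the Wnt agonist CHIR and AGN. The mESCs were derived from blastocysts that carry the ScxGFP reporter, a green fluorescent protein driven by regulatory sequence of the tendon gene Scx, and the labels do not tie a replicate to a cell line. The comparison asks what changed between 6 h and 18 h in both ligands together (6 libraries against 6, with the ligand as a covariate). No culture of these times lacked the induction factors, so elapsed time and the length of exposure cannot be told apart. The remaining 21 libraries, which hold the paraxial mesoderm and later times, were used only where stated.

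Paraxial mesoderm is laid down by the primitive streak and the tailbud, where Wnt and FGF signals keep cells in a presomitic state through T, Tbx6 and Msgn1. As these signals decline, the presomitic mesoderm segments into somites under a Notch oscillator and Mesp2. Hedgehog signals then direct the ventral somite to sclerotome, the source of vertebral cartilage and, together with the syndetome marked by Scx, of axial tendons. Retinoic acid acts against the FGF and Wnt gradients in this tissue and sets the expression of Hox genes. In the scale used below, levels are CPM (counts scaled to a common library total) after TMM normalization and changes are log2 fold changes of 18 h over 6 h ± SE, fitted over both ligands. A gene was called where the adjusted p of edgeR's quasi-likelihood test, corrected over all tested genes, was under 0.05.

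Total counts ran from 17.5 M to 22.8 M per library and did not separate the times (exact permutation test over 924 splits, two-sided p = 0.89). Principal component 1 held 55.4% of the variance and placed all 6 libraries of 6 h on one side and all 6 of 18 h on the other. The ligands separated on component 2, with 13.8%. CD1530 at 18 h replicate 1 stood apart from its group along gene length: in 5 equal bins of exon length, its genes in the shortest bin lay a median of 0.159 (log2) above the mean of its group and those in the longest bin lay at -0.181. Ribosomal protein genes took 3.01% of its counts, against 2.38% to 2.46% in the other 5 libraries of 18 h. For changes over both ligands, a named gene's call that changed without that library, or a list count that it moved by over 1.5 times, is stated with the result.

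**Figure D1:**
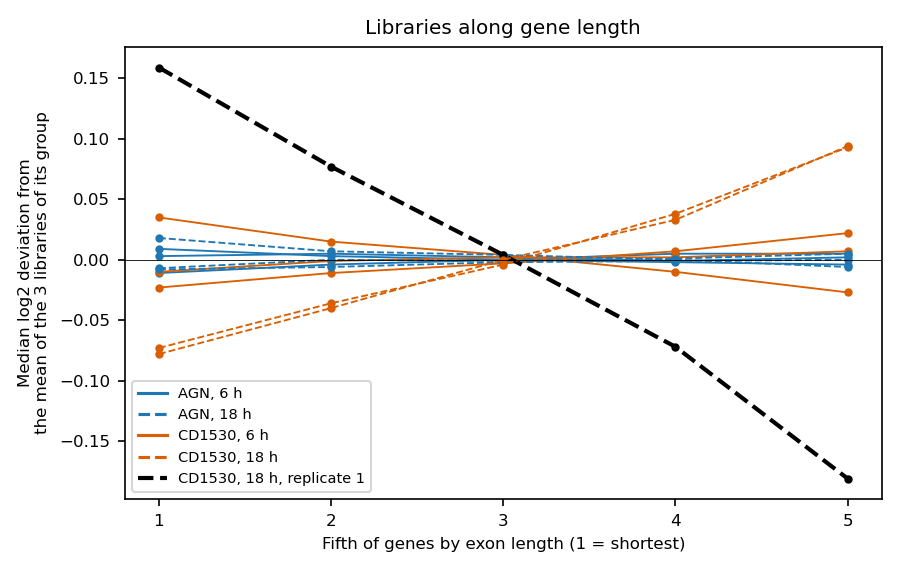
Median deviation of each library from the mean of the 3 libraries of its group (log2 scale, y axis) in 5 equal bins of genes by exon length, from the shortest (1) to the longest (5), 1 line per library. CD1530 at 18 h replicate 1 goes from 0.159 to -0.181, and the other 2 libraries of its group, measured against a mean that includes it, mirror it.

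Between 6 h and 18 h more of the transcriptome was called than not. Of 16816 genes tested, 8701 (51.7%) were called. Of these, 4450 were higher at 18 h (26.5% of the genes tested) and 4251 lower (25.3%), and these are the shares against which each gene group below is to be read. Most changes were small, with a median absolute log2 fold change of 0.33 among the called genes. A change of at least 1 was found for 630 higher genes (3.75%) and 260 lower genes (1.55%), and a change of at least 2 for 117 and 58. All 6 libraries of 18 h lay above all 6 of 6 h for 2447 genes (14.6%) and below them for 2309 (13.7%). Without CD1530 at 18 h replicate 1 the calls numbered 9716 (5032 higher, 4684 lower), of which 8422 were among the calls of all 12 libraries, and no call changed its sign. The change rose slightly with exon length, by 0.029 per doubling, and by 0.0493 without that library. In the shortest of 5 bins of exon length 15.8% were higher and 24.3% lower, against 29.8% and 26.2% in the longest. After removal of trends with length and GC content 3968 genes were higher and 5495 lower, so the split between directions depends on this choice, while 7929 of the calls kept their direction and none was called in the opposite one.

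The gene with the largest rise was Fibin (ENSMUSG00000074971, chr2:110360917-110363183 on GRCm38), which encodes a secreted protein first described in fin bud development. Its level ran from 0.468 to 0.649 CPM (median 0.591) at 6 h and from 15.9 to 28.8 CPM (median 21.2) at 18 h. The log2 fold change was 5.21 ± 0.11 (edgeR adjusted p = 1.97e-16), 5.54 in CD1530 and 4.79 in AGN, and the lowest library of 18 h lay far above the highest of 6 h. Ntng1, a netrin-like membrane protein, ran from 0.232 to 0.401 CPM (median 0.304) at 6 h and from 6.27 to 8.47 CPM (median 7.39) at 18 h and rose by 4.51 ± 0.15. Angptl1, a secreted angiopoietin-like protein, rose by 3.96 ± 0.17, from 0.488 ± 0.207 to 7.73 ± 0.696 CPM (mean ± SD of the 6 libraries of a time, both ligands included). Myog, the transcription factor that drives terminal differentiation of skeletal muscle, ran from 0.208 to 0.603 CPM (median 0.405) at 6 h and from 4.76 to 6.57 CPM (median 6.11) at 18 h, with a change of 3.72 ± 0.16. Genes of other tissues stood among the next, the apolipoprotein Apoa1 (3.55 ± 0.13), the endothelial sialomucin Emcn (3.42 ± 0.22) and the embryonic globin Hbb-y (3.36 ± 0.08) with the red cell anion exchanger Slc4a1 (2.90 ± 0.15). Further rises were those of the potassium channel Kcnj15 (3.09 ± 0.14), the neuropeptide receptor Npffr1 (2.92 ± 0.18), the syntaxin-binding Stxbp5l (2.89 ± 0.28), the prostaglandin-degrading enzyme Hpgd (2.82 ± 0.22), the pepsinogen Pga5 (2.80 ± 0.18) and the membrane protein Tmem178 (2.76 ± 0.20). Pga5 was the most abundant of those named, at 52.7 ± 5.83 CPM at 6 h and 407 ± 205 at 18 h, and at 18 h the 2 ligands lay apart. It rose by 2.21 in CD1530 and by 3.36 in AGN. The change also differed between ligands for Emcn (CD1530 minus AGN 1.61), Hpgd (1.59) and Npffr1 (-1.28), by the test of the difference given below.

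The largest fall was that of Gpr158 (ENSMUSG00000045967, chr2:21367542-21830547 on GRCm38), an orphan G protein-coupled receptor. Its 6 libraries of 6 h held 893 reads in all and its 6 of 18 h held 19. It ran from 6.06 to 8.99 CPM (median 7.11) at 6 h and from 0.0453 to 0.308 CPM (median 0.0985) at 18 h, a change of -5.52 ± 0.22 (edgeR adjusted p = 7.08e-13). Prss56, a serine protease, fell from 9.8 ± 1.46 to 0.475 ± 0.12 CPM (-4.36 ± 0.15). Mixl1, a homeobox gene of the primitive streak, ran from 41.7 to 43.4 CPM (median 42.3) at 6 h and from 2.09 to 4.31 CPM (median 3.18) at 18 h (-3.73 ± 0.11). Other developmental regulators stood among the largest falls, such as Dmrt2, which acts in somite patterning (-3.05 ± 0.17), the Wnt ligand Wnt6 (-2.57 ± 0.16) and the Wnt-responsive zinc finger gene Sp5 (-2.55 ± 0.06). The heparin-binding growth factor Ptn fell from 126 ± 13.9 to 15.9 ± 1.21 CPM (-2.97 ± 0.06). Further falls were those of Slc7a14 (-3.65 ± 0.15), the tyrosine phosphatase Ptpn5 (-2.54 ± 0.11), Psd2 (-2.46 ± 0.15), the prostaglandin D synthase Ptgds (-2.44 ± 0.13), the focal adhesion protein Tns4 (-2.33 ± 0.11), the metalloreductase Steap4 (-2.20 ± 0.11) and Scel (-2.18 ± 0.14). By p-value, the first gene of the whole comparison was the lactate and monocarboxylate transporter Slc16a1, at 501 ± 13.9 CPM at 6 h and 148 ± 8.14 at 18 h (-1.76 ± 0.03, edgeR adjusted p = 4.39e-17).

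**Figure D2:**
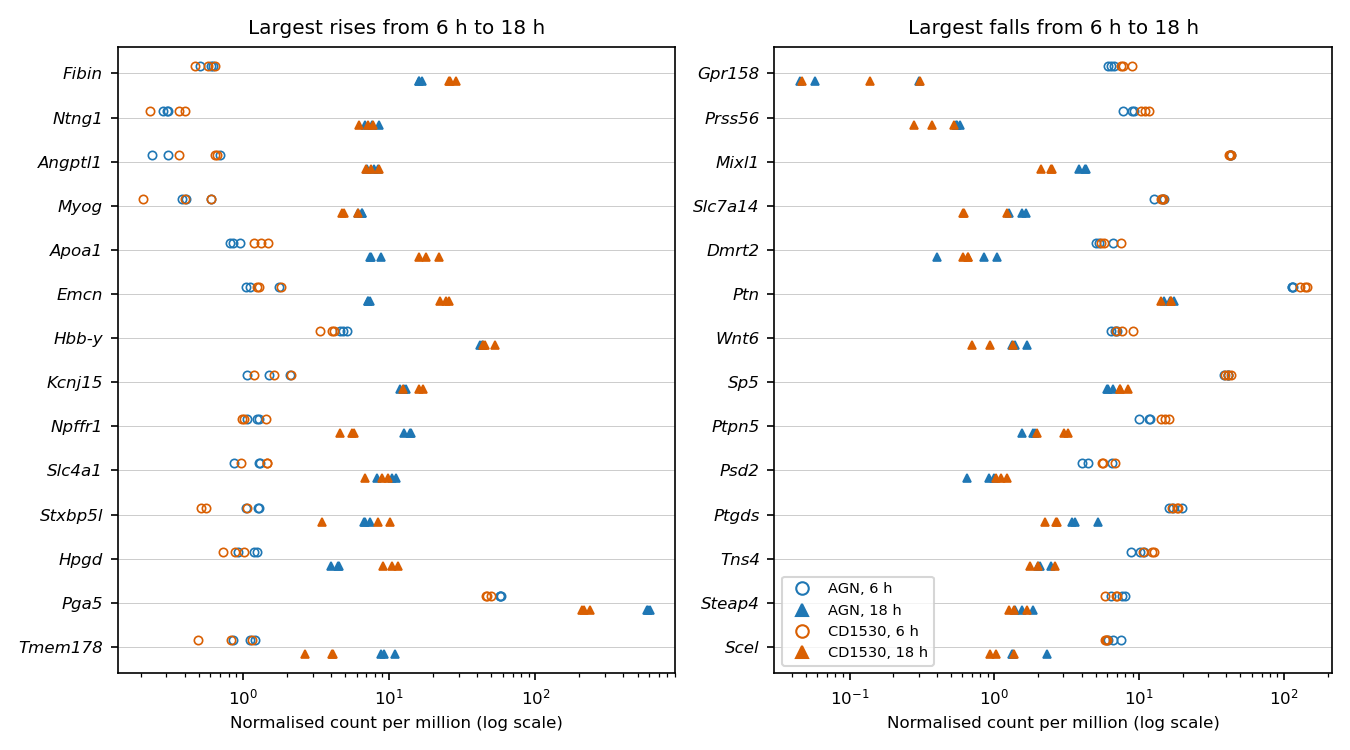
Level in each of the 12 libraries (x axis, normalised CPM, log scale) of the genes named for the largest rises and falls between 6 h (circles) and 18 h (triangles), with AGN in blue and CD1530 in orange. These genes were picked among those whose times do not overlap. At 18 h the ligands lie apart for several of them, among them Pga5, Emcn, Npffr1, Hpgd, Apoa1, Tmem178 and Fibin.

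Several of these genes passed through a peak or a trough at one of these times, as seen in means over 3 libraries after TMM normalization of all 33. Gpr158 was at 0.408 CPM in paraxial mesoderm, 7.71 (CD1530) and 6.11 (AGN) at 6 h, and 0.16 and 0.13 at 18 h. Mixl1 likewise was higher at 6 h (40.5 and 40.8 CPM) than in paraxial mesoderm (8.94) or at 18 h (2.29 and 4.0). For these genes the fall from 6 h to 18 h thus followed a higher level at 6 h than in the starting cells. Sp5 had a different course, falling from 221 CPM in paraxial mesoderm to 39.3 and 38.5 at 6 h and 7.46 and 6.04 at 18 h. Myog and Pga5 were highest at 18 h among the times up to day 1.5, with Myog at 5.11 and 6.23 at 18 h and 1.63 and 2.01 CPM at day 1.5. Hbb-y was at 21.5 CPM in paraxial mesoderm, 3.71 and 4.66 at 6 h and 45.8 and 41.8 at 18 h. These courses are descriptions of group means, without a test.

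The promoters of the largest rise, the largest fall, the Wnt-responsive Sp5 and the presomitic gene Tbx6, whose course is described below, are shown for the sequence around each start. Each runs 5′ to 3′ on the strand of the gene, from 250 bases before to 50 bases after the RefSeq start of transcription, on GRCm38.p6. Capitals mark a match to a searched motif.
Fibin (chr2:110362944-110363243, minus strand): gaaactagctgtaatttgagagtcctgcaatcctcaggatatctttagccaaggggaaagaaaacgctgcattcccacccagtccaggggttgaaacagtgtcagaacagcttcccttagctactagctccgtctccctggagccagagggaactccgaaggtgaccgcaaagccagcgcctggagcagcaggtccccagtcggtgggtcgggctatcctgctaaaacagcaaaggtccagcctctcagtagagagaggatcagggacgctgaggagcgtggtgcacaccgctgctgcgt
Gpr158 (chr2:21367317-21367616, plus strand): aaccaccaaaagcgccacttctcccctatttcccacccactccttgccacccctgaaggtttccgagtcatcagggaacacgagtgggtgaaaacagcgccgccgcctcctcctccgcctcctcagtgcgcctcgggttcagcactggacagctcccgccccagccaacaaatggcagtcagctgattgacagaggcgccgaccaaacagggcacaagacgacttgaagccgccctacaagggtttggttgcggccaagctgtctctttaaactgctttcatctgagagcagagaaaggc
Sp5 (chr2:70474673-70474972, plus strand): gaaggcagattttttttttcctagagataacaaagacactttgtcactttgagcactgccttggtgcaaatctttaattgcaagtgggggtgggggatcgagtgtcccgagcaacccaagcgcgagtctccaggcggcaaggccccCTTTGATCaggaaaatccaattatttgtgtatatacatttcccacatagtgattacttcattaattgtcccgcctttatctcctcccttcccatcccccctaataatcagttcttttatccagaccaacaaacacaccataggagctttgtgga
Tbx6 (chr7:126781233-126781532, plus strand): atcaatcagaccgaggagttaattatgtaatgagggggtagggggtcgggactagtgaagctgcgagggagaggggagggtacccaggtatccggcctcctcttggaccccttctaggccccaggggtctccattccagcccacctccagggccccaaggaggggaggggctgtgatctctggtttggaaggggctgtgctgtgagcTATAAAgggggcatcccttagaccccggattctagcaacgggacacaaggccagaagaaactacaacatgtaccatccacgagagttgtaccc
The Sp5 window holds the TCF/LEF motif CTTTGATC, starting at position -104 from the transcription start, and the Tbx6 window holds TATAAA, starting at position -43. The other motifs searched, on both strands, were GACCACCCA (GLI), TTTCGCGC or TTTGGCGC (E2F), ACATTCCA (TEAD), TGACGTCA (CRE), TGAGTCA (AP1) and CCAATCA (NFY), and none of the 8 motifs matched in the windows of Fibin and Gpr158. A RefSeq window was found for 11498 of the 16816 genes tested, with a mean of 1.278 windows a gene. Among them CTTTGATC was present in 0.77% and TATAAA in 9.4%. TATAAA was present in 75 of the 452 genes with a window that were called higher with a change of at least 1 (16.6%), and in 28 of the 182 called lower with such a change (15.4%). The E2F letters were in 1 of the former (0.22%) and 4 of the latter (2.2%), against 1.71% of all. CTTTGATC was in 6 of the former (1.33%) and in 1 of the latter (0.55%). The E2F and CTTTGATC matches are too few for the groups to be compared, and the difference in TATAAA shares was not tested. A match describes the letters in a window and not a bound site.

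**Figure D3:**
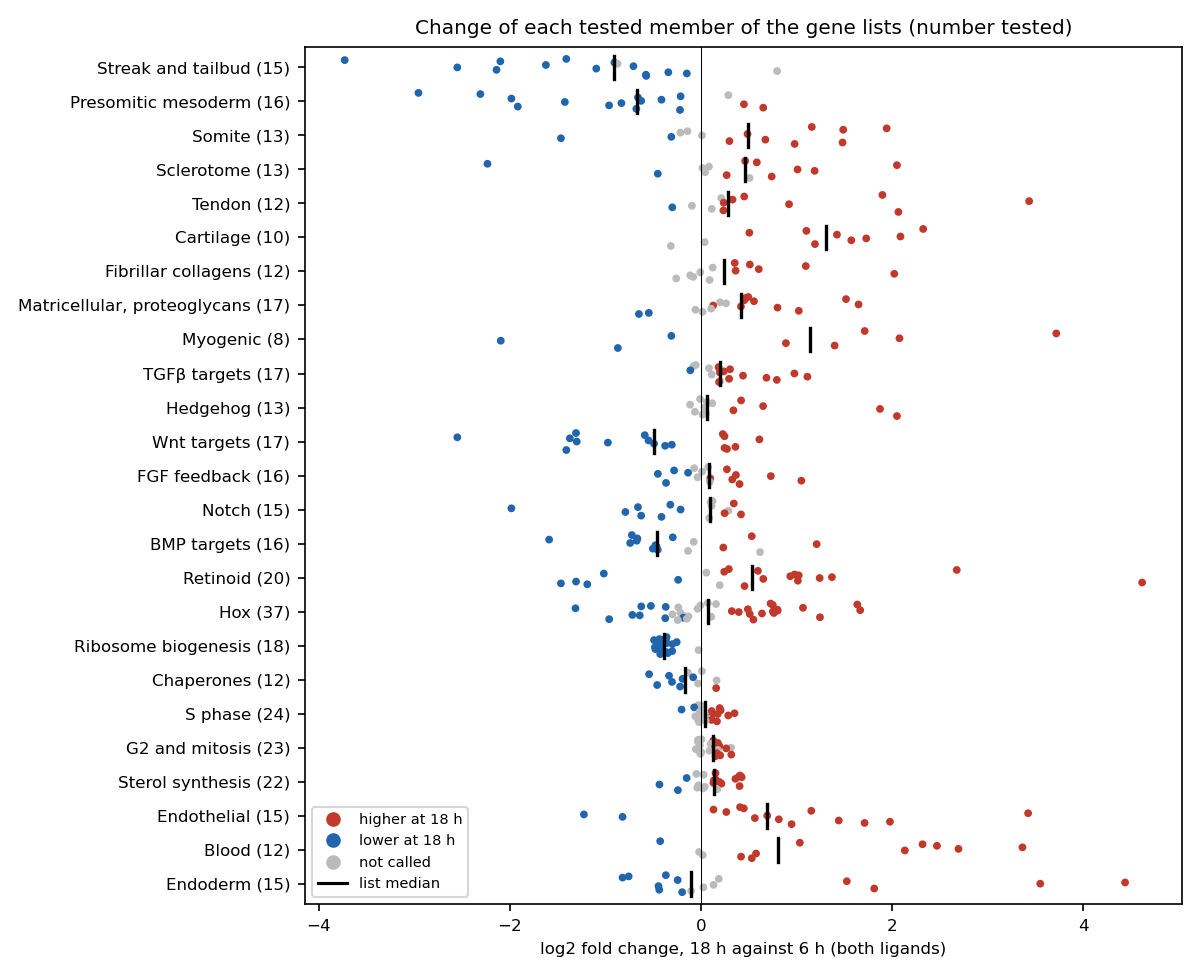
Log2 fold change of 18 h against 6 h (x axis) of each tested member of 25 gene lists, with the number tested in parentheses, 1 point per gene, red where called higher, blue where called lower and grey where not called, and a bar at the list median. Streak, presomitic and ribosome biogenesis genes lie mostly below 0 and cartilage, endothelial and blood genes mostly above, while over all tested genes 26.5% were higher and 25.3% lower.

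Genes of the primitive streak and tailbud fell as a group. Of 15 tested, 13 were lower and 0 higher, with a median log2 fold change of -0.91 against -0.0064 over all genes tested, and their summed level went from 343.0 to 379.0 CPM at 6 h to between 141.6 and 165.4 at 18 h. Besides Mixl1 and Sp5, Fgf8, a ligand made in the streak, ran from 14 to 20 CPM (median 15.9) at 6 h and from 2.01 to 6.48 CPM (median 3.44) at 18 h, a change of -2.14 ± 0.15. The T-box gene Eomes changed by -2.10 ± 0.09, the caudal gene Cdx2 by -1.62 ± 0.15 and T (brachyury) by -1.41 ± 0.07. No library of 18 h reached the lowest library of 6 h for Fgf8. Wnt3a (0.80 ± 0.36, called in 2 of 23 alternatives) and Cdx1 (-0.87 ± 0.40, called in 5 of 24) were the 2 members not called. For Cdx1, whose ligands differ and are described below, the value over both ligands depends on the model. With 4 group means and the ligands weighted equally it was -1.73 (edgeR adjusted p = 1.03e-09).

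Presomitic and segmentation genes followed, with 13 of 16 lower, 2 higher and a median of -0.67. Tbx6, the T-box gene of presomitic identity, ran from 3.63 to 5.12 CPM (median 4.08) at 6 h and from 0.232 to 0.75 CPM (median 0.536) at 18 h, a change of -2.96 ± 0.18 (edgeR adjusted p = 1.75e-10), with no overlap of the times. Msgn1, which acts beside it, fell from 0.966 ± 0.213 to 0.20 ± 0.199 CPM (-2.31 ± 0.39). The Notch ligand gene Dll3 changed by -1.98 ± 0.16, the transcriptional coregulator Cited1 by -1.92 ± 0.11 and the segment boundary gene Mesp1 by -1.43 ± 0.35. Fgf4 (0.65 ± 0.04) and Ripply1 (0.45 ± 0.16), a repressor that ends Tbx6 activity at the segment border, were the 2 higher members. Ripply1 was not called without CD1530 at 18 h replicate 1 (edgeR adjusted p = 0.0542), which left 1 higher and 12 lower, nor in 3 other alternatives of 24 (adjusted p of edgeR or DESeq2 from 0.0161 to 0.0595 over all).

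In the somite list 8 of 13 were higher and 2 lower, with a median of 0.49. Meox2, a homeobox gene of the formed somite, ran from 2.53 to 3.88 CPM (median 3.23) at 6 h and from 10.4 to 15.8 CPM (median 12.4) at 18 h (1.94 ± 0.11). Its relative Meox1 rose from 26.9 ± 8.22 to 59.9 ± 16.7 CPM (1.16 ± 0.04). Tcf15, which is needed for the epithelial somite, changed by 1.49 ± 0.06. Aldh1a2, the main retinoic acid synthesizing enzyme of the somite, was lower, at 47.4 ± 4.14 CPM at 6 h and 17.1 ± 1.61 at 18 h (-1.47 ± 0.06), as was Pax3 (-0.31 ± 0.11), a marker of the dorsal somite, though not without CD1530 at 6 h replicate 2 (edgeR adjusted p = 0.0655, the highest of 24 alternatives that reached down to 0.00285).

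Of 13 sclerotome genes 7 were higher and 2 lower, with a median of 0.46 and values from -2.24 to 2.05. Their summed level overlapped between the times, from 235.3 to 255.8 CPM at 6 h and from 227.8 to 277 at 18 h. Nkx3-2, which promotes cartilage fate in the sclerotome, ran from 0.602 to 1.6 CPM (median 1.12) at 6 h and from 2.6 to 7.6 CPM (median 5.26) at 18 h (2.05 ± 0.25), and every library of 18 h lay above every one of 6 h. The forkhead genes Foxd2 (1.19 ± 0.20) and Foxf2 (1.01 ± 0.04) were higher with it. Pax9 (0.58 ± 0.09) and Pax1 (0.46 ± 0.14), the paired box genes that define the sclerotome, rose less. Pax1 stayed at a low level, with 2.65 ± 0.523 CPM at 6 h and 3.69 ± 0.569 at 18 h. Sox9, the regulator shared by cartilage and tendon progenitors, was at 92.8 ± 4.42 and 98.6 ± 9.0 CPM and was not called (0.08 ± 0.04), though it was called higher in 4 of 24 alternatives, with 0.09 without CD1530 at 18 h replicate 1 (edgeR adjusted p = 0.019, from 0.00882 to 0.44 over the alternatives).

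Tendon genes were higher in 8 of 12 and lower in 1, with a median of 0.28. Scx (ENSMUSG00000034161, chr15:76457452-76459458 on GRCm38), the transcription factor that marks tendon progenitors, ran from 116 to 126 CPM (median 121) at 6 h and from 429.6 to 502 CPM (median 444) at 18 h, a change of 1.90 ± 0.04 (edgeR adjusted p = 1.97e-16). The lowest library of 18 h was thus well above the highest of 6 h. The small leucine-rich proteoglycans of the tendon matrix were among the higher members. Lum ran from 24 to 29.6 CPM (median 26.2) at 6 h and from 107 to 114 CPM (median 110.4) at 18 h (2.07 ± 0.04), Fmod went from 0.353 ± 0.184 to 3.83 ± 1.25 CPM (3.44 ± 0.18) and Bgn from 289.7 ± 27.8 to 549 ± 48.1 CPM (0.92 ± 0.04). The homeobox gene Mkx, which acts later in tendon, rose by 0.45 ± 0.09. Postn (0.11 ± 0.08) and Tnc (0.21 ± 0.09), both matrix proteins of tendon, were not called, Tnc with a call in 10 of 24 alternatives, and Tnmd was too low to be tested. The call of Mkx rests on overlapping times, as its libraries ran from 7.85 to 10.7 CPM (median 8.2) at 6 h and from 8.58 to 13.4 CPM (median 12.5) at 18 h.

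Cartilage genes were higher in 8 of 10 and lower in 0, with the highest median of the matrix lists (1.31). Col2a1, the collagen of cartilage, ran from 79.9 to 94.2 CPM (median 86.9) at 6 h and from 356 to 536 CPM (median 447) at 18 h (2.33 ± 0.09). Its change was 2.05 in CD1530 and 2.60 in AGN. The type IX collagen chains Col9a2 (2.09 ± 0.08) and Col9a3 (1.73 ± 0.16) and the type XI chain Col11a1 (1.57 ± 0.07) rose with it. Acan, the large proteoglycan of cartilage, was at 0.959 ± 0.147 CPM at 6 h and 2.08 ± 0.491 at 18 h (1.10 ± 0.19), and Matn4 changed by 0.51 ± 0.20, a call lost in 11 of 24 alternatives (adjusted p of edgeR or DESeq2 from 0.0145 to 0.112). Comp (-0.32 ± 0.15) and Col11a2 (0.04 ± 0.13) were not called, though Comp was lower in 3 of 24 alternatives.

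Among fibrillar and associated collagens 6 of 12 were higher and 0 lower, with a median of 0.24. Col3a1, which is laid down early in connective tissue, went from 1217 ± 54.6 to 2604 ± 115 CPM (1.10 ± 0.03), Col14a1 rose by 2.02 ± 0.13, Col5a2 by 0.60 ± 0.06 and Col1a2 by 0.51 ± 0.05. Col1a1, the main tendon collagen, ran from 2186 to 3271 CPM (median 3033) at 6 h and from 3402 to 4189 CPM (median 3626) at 18 h, with a change of 0.35 ± 0.08, and the highest library of 6 h lay just under the lowest of 18 h. In the list of basement membrane genes 8 of 14 were higher and 1 lower (median 0.27), led by Nid1 (0.83 ± 0.09), Sparc (0.48 ± 0.04) and the laminin chain Lamb1 (0.47 ± 0.05), while Col4a1 was the lower one (-0.28 ± 0.05). Matricellular proteins and proteoglycans were higher in 10 of 17 and lower in 2 (median 0.42), with Spon2 (1.65 ± 0.12), the TGFβ-induced Tgfbi (1.52 ± 0.03), the latent TGFβ-binding Ltbp1 (1.02 ± 0.07) and fibrillin 1 (Fbn1, 0.80 ± 0.11) foremost. Without CD1530 at 18 h replicate 1 the basement membrane list had 11 higher and 1 lower. Fibronectin (Fn1) rose by 0.49 ± 0.12. In CD1530 at 18 h replicate 1, however, Fn1 was at 1590 CPM, within its range at 6 h. After removal of the length and GC trends 3 of the collagens and 4 of the basement membrane genes were lower.

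Set beside each other per kilobase of exon, these genes differed widely in level. In mean CPM per kilobase at 6 h and at 18 h, Col1a1 was at 440.2 and 561, Fn1 at 153 and 216, Col3a1 at 124 and 265, and Tgfbi at 84.9 and 243. On that scale the level of Scx (60.2 and 225) came near that of Tgfbi by 18 h. Col2a1 (9.46 and 48.1), Lum (10.8 and 45.1) and Sox9 (22.4 and 23.8) lay lower. Mkx (2.1 and 2.88), Pax1 (0.591 and 0.821) and Acan (0.128 and 0.279) were the lowest of those named. The 24 tested genes that the study itself named as markers or module members, which is no independent choice, were higher in 19 and lower in 1, Tbx6. They included Igfbp5, a binding protein of insulin-like growth factors (1.15 ± 0.08), Sox6, a partner of Sox9 in cartilage (0.74 ± 0.09), the proteoglycan Vcan (0.47 ± 0.12) and the collagen crosslinking enzyme Lox (0.23 ± 0.09), whose call was lost in 9 of 24 alternatives, which include leaving out CD1530 at 18 h replicate 1 (adjusted p of edgeR or DESeq2 from 0.00617 to 0.115). Vcan was at 304.9 CPM in CD1530 at 18 h replicate 1, below its 6 libraries of 6 h.

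**Figure D4:**
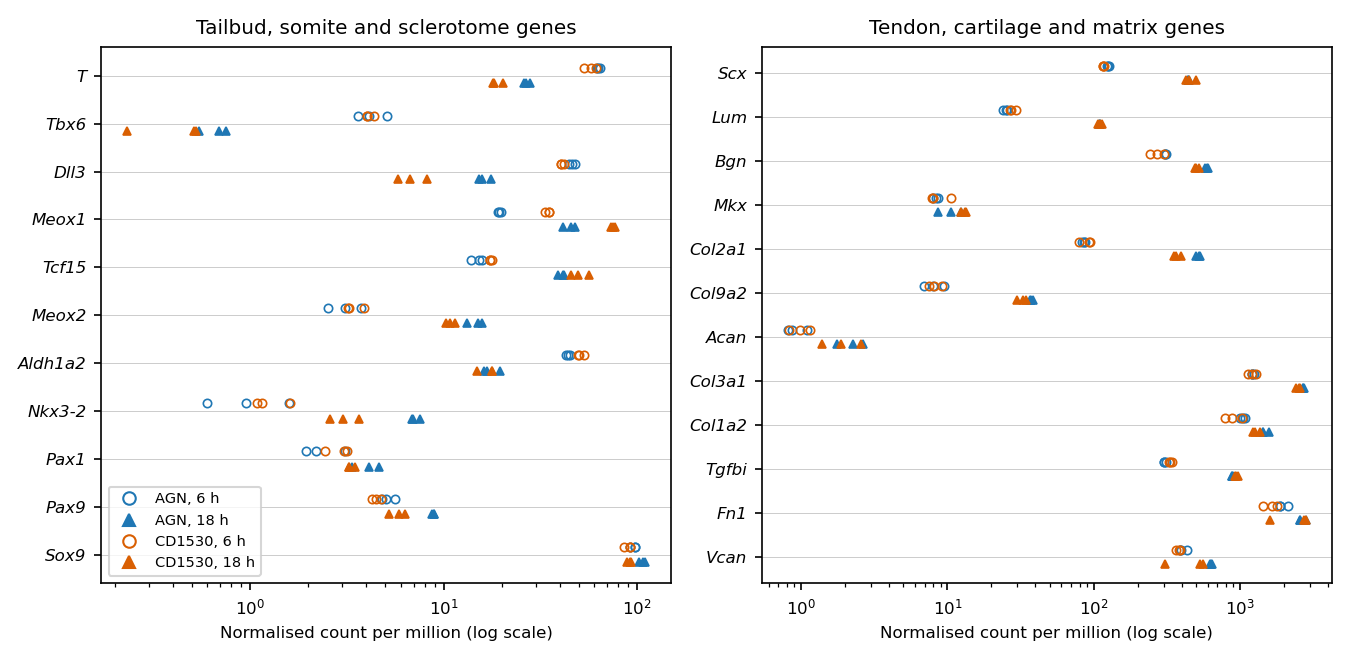
Level in each of the 12 libraries (x axis, normalised CPM, log scale) of tailbud, somite and sclerotome genes (left) and tendon, cartilage and matrix genes (right) at 6 h (circles) and 18 h (triangles), with AGN in blue and CD1530 in orange. T, Tbx6 and Dll3 lie lower and Scx, Lum, Col2a1 and Meox2 higher at 18 h with no overlap of the times, whereas Sox9 overlaps, and 1 triangle each of Fn1 and Vcan, from CD1530 at 18 h replicate 1, lies among or below the circles.

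Signalling lists moved in different directions. Some share genes with lists above, as the Wnt list also holds Sp5 and T and the hedgehog list also holds Nkx3-2, so their counts are not independent. Genes that respond to or restrain Wnt signals were lower in 11 of 17 and higher in 6, with a median of -0.49 and every member called. Several feedback inhibitors fell. Axin2 ran from 34.4 to 40.7 CPM (median 37.7) at 6 h and from 12.7 to 16.9 CPM (median 16.2) at 18 h (-1.31 ± 0.06), Nkd1 changed by -1.37 ± 0.06 and the secreted antagonist Dkk1 by -1.30 ± 0.06. The stem cell receptor Lgr5 changed by -0.98 ± 0.06. Others were higher, with Nkd2, a relative of Nkd1, at 0.61 ± 0.08 and the secreted antagonists Sfrp1 and Sfrp2 at 0.36 ± 0.13 and 0.25 ± 0.08. Sfrp1 overlapped between the times, running from 84.4 to 110.0 CPM (median 93.7) at 6 h and from 71.3 to 184 CPM (median 134) at 18 h, and changed by -0.07 in CD1530 (not called) and 0.77 in AGN. Its call over both ligands was lost in 9 of 24 alternatives (adjusted p of edgeR or DESeq2 up to 0.0993), among them the replicate block (edgeR adjusted p = 0.0798), and that of Sfrp2 in 2 (up to 0.063), without CD1530 at 6 h replicate 3 or at 18 h replicate 2. Targets and antagonists of BMP signals were lower in 10 of 16 and higher in 3 (median -0.46), with the homeobox gene Msx1 (-1.59 ± 0.12), the ligand Bmp4 (-0.74 ± 0.06) and the target Id1 (-0.72 ± 0.06) lower and the ligand Bmp5 higher (1.21 ± 0.10). Notch pathway genes were lower in 7 of 15 and higher in 3, with a median of 0.09 that differs in sign from the balance of calls, and the Notch target Hey1 (-0.79 ± 0.04) fell beside the ligands Dll1 (-0.66 ± 0.10) and Dll3. Without CD1530 at 18 h replicate 1 the Notch list had 6 lower and 5 higher.

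Genes of the TGFβ response were higher in 11 of 17 and lower in 1 (median 0.20). The largest changes were those of the latent binding protein Ltbp2 (1.11 ± 0.08), the ligand Tgfb3 (0.98 ± 0.05) and the feedback inhibitors Ldlrad4 (0.79 ± 0.10) and Pmepa1 (0.68 ± 0.05). With length and GC trends removed 10 were higher and 3 lower. Smad7, the inhibitory Smad that TGFβ itself induces, was at 80.2 ± 5.2 and 77.1 ± 3.23 CPM and was not called (-0.06 ± 0.04), though it was lower with those trends removed (-0.18, edgeR adjusted p = 0.000588, from 0.000136 to 0.613 over the alternatives). For hedgehog signalling 5 of 13 were higher and 0 lower (median 0.06), but 8 were higher and 0 lower without CD1530 at 18 h replicate 1, and 5 higher and 2 lower with length and GC trends removed. The coreceptor Boc rose by 1.87 ± 0.07 and the antagonist Hhip by 0.65 ± 0.13, and the direct target Gli1 was at 19.3 ± 1.71 and 19.2 ± 1.56 CPM and was not called (-0.01 ± 0.07). Ptch1, the receptor and a direct target, was at 114 ± 7.18 and 124 ± 18.6 CPM and was not called over the 12 libraries (0.12 ± 0.07). CD1530 at 18 h replicate 1 held 88.98 CPM of Ptch1 against 122.8 to 138.4 in the other 5 libraries of 18 h, and without it Ptch1 was called higher (0.20, edgeR adjusted p = 1.92e-06, up to 0.422 over the alternatives). The FGF list was higher in 7 of 16 and lower in 4 (median 0.08), with the receptor Fgfr2 (1.05 ± 0.10) and the effector Etv1 (0.73 ± 0.05) higher and the phosphatase Dusp5 (-0.45 ± 0.04) and the inhibitor Il17rd (-0.37 ± 0.08) lower.

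YAP targets and contractile genes were higher in 14 of 21 and lower in 2 (median 0.31), including the YAP target Ankrd1 (1.15 ± 0.14), the receptor kinase Axl (1.18 ± 0.05), the myosin light chain Myl9 (0.92 ± 0.09) and smooth muscle actin Acta2 (0.84 ± 0.09). Immediate early genes were split, with 5 of 19 higher and 7 lower (median -0.06), among them Ier3 (0.68 ± 0.08) and Fos (0.42 ± 0.08) higher and Junb (-0.86 ± 0.04) and Fosb (-0.67 ± 0.17) lower. Of genes of epithelial to mesenchymal change and cadherins, 7 of 17 were higher and 6 lower (median 0.07). Snai2 (0.57 ± 0.09) rose and its relative Snai1 (-0.68 ± 0.05) fell, and Cdh4 (-0.83 ± 0.10) and Cldn6 (-0.53 ± 0.06) fell too.

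The retinoid list was higher in 13 of 20 and lower in 5 (median 0.53), and 8 of the 20 differed between ligands in their change, against 2.61% of all genes. Its members included genes with like and with unlike changes in the 2 ligands. Rarb, the receptor gene that retinoic acid induces, ran from 0.204 to 1.46 CPM (median 0.839) at 6 h and from 2.31 to 8.92 CPM (median 4.58) at 18 h over both ligands (2.68 ± 0.14), with changes of 2.61 in CD1530 and 2.88 in AGN (edgeR adjusted p of the difference 0.857). Stra8, a gene known as stimulated by retinoic acid, was at 7.25, 5.93 and 6.07 CPM in the 3 CD1530 libraries of 18 h and at 0.317, 0.20 and 0.23 in those of AGN, and its 6 libraries of 6 h held 16 reads in all. Its fitted shared change of 4.62 thus covers a rise to unlike levels, though the difference in change was not called (edgeR adjusted p = 0.395). The retinol reductase Dhrs3 changed by 1.37 ± 0.19. Among the lower members beside Aldh1a2 were the retinol transporter gene Stra6 (-1.31 ± 0.14), the synthesizing enzyme Aldh1a3 (-1.19 ± 0.16) and the receptor Rxrg (-1.02 ± 0.21).

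Of 37 Hox genes tested 16 were higher and 9 lower (median 0.07). The direction differed along the clusters, a split made after the values were seen: in paralogue groups 2 to 8, 13 of 19 were higher and 2 lower (median 0.64), and in groups 9 to 13, 3 of 15 were higher and 6 lower (median -0.24). Hoxb5 (1.67 ± 0.11), Hoxa4 (1.64 ± 0.20) and Hoxd3 (1.25 ± 0.12) led the rises, and Hoxb1 changed by -1.31 ± 0.22. Hoxa13 (1.07 ± 0.19), Hoxd12 (0.55 ± 0.20) and Hoxb9 (0.40 ± 0.10) were the higher members of groups 9 to 13, of which Hoxd12 lost its call in 4 of 24 alternatives, each with 1 library left out (CD1530 at 6 h replicate 1 or 3, AGN at 18 h replicate 1 or CD1530 at 18 h replicate 3, edgeR adjusted p up to 0.0789). Genes of Hox clusters overlap antisense transcripts, and whether the counting used strand is not given in the sources used here, so reads of the 2 strands may be mixed.

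Among lists of cell growth, ribosome biogenesis was the most uniform, with 17 of 18 lower and 0 higher (median -0.39) and a summed level of 6228 to 6396 CPM at 6 h and 4726 to 5100 at 18 h. The nucleolar proteins Nop56 (-0.49 ± 0.03) and Fbl (-0.43 ± 0.04), the processing factors Rrp12 (-0.48 ± 0.04) and Utp20 (-0.48 ± 0.07) and nucleophosmin (Npm1, -0.37 ± 0.04) fell within a narrow range of sizes. Bop1 was the member not called (-0.03 ± 0.03), and it was lower too with length and GC trends removed (-0.12, edgeR adjusted p = 0.000817, from 0.000367 to 0.901 over the alternatives). In the same direction, heat shock proteins and chaperones were lower in 7 of 12 and higher in 1 (median -0.17), with Hspa8 (-0.54 ± 0.03), the mitochondrial chaperone Hspd1 (-0.46 ± 0.03) and Hsph1 (-0.34 ± 0.04) lower. Folding genes of the endoplasmic reticulum were higher in 8 of 16 and lower in 5 (median 0.08), among the higher ones Sdf2l1 (0.52 ± 0.05), Calr (0.41 ± 0.03) and Pdia4 (0.34 ± 0.03). The share of counts in ribosomal protein genes went from 2.88% ± 0.063 at 6 h to 2.52% ± 0.242 at 18 h (SD, n = 6, exact permutation test, two-sided p = 0.0152), and that of mitochondrial genes from 0.933% ± 0.0495 to 1.06% ± 0.073 (p = 0.00433 by the same exact test).

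Cell cycle genes changed little. Of 24 S phase genes 10 were higher and 2 lower (median 0.04), of 23 G2 and mitosis genes 10 were higher and 0 lower (median 0.13), and of 15 G1 regulators 7 were higher and 2 lower (median 0.06). Within the last list the CDK inhibitors Cdkn2b, a TGFβ-responsive gene, and Cdkn2c rose by 1.25 ± 0.05 and 1.09 ± 0.15, and Ccnd3 (cyclin D3) by 0.57 ± 0.04. The proliferation marker Mki67 was at 188 ± 18.3 and 232 ± 47 CPM and was not called (0.31 ± 0.13), though it was called higher in 11 of 24 alternatives, which include leaving out CD1530 at 18 h replicate 1, nor was Cdk1 (0.00 ± 0.05). Of 16 p53 targets 4 were higher and 5 lower (median -0.04). Without CD1530 at 18 h replicate 1 the G2 and mitosis list had 13 higher and 1 lower. By ligand, that list had 12 higher and 0 lower within CD1530 (median 0.19) and 2 higher and 1 lower within AGN (median 0.03). The difference between ligands was called for 0 of its members. With length and GC trends removed the S phase list had 7 higher and 7 lower and the G1 list 7 and 6.

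Metabolic lists were divided as well. Glycolysis and hypoxia genes were higher in 7 of 26 and lower in 7 (median -0.04), with the glucose transporter Slc2a3 lower (-0.37 ± 0.03). Within CD1530 10 were higher and 2 lower, and within AGN 3 were higher and 10 lower, while 4 of the 26 had a called difference between ligands. Oxidative phosphorylation genes were higher in 2 of 24 and lower in 5 (median -0.02). Without CD1530 at 18 h replicate 1 the latter list had 13 lower and 2 higher. Genes of sterol synthesis were higher in 12 of 22 and lower in 3 (median 0.14) and those of fatty acid synthesis in 6 of 12 and 2 (median 0.14), led by the desaturases Fads1 (0.68 ± 0.04) and Fads2 (0.57 ± 0.04). The sterol list had 11 higher and 2 lower within CD1530 and 5 higher and 3 lower within AGN, with 0 called differences between ligands. In the amino acid stress (ATF4) list, with 7 of 17 higher and 4 lower (median 0.07), the cystine transporter Slc7a11 fell from 29.5 ± 3.05 to 8.47 ± 1.25 CPM (-1.80 ± 0.09) and asparagine synthetase (Asns) was lower too (-0.81 ± 0.03), whereas Atf4 itself was at -0.02 ± 0.05 and not called. With length and GC trends removed the glycolysis list had 4 higher and 12 lower, oxidative phosphorylation 5 and 8, sterol synthesis 8 and 5, fatty acid synthesis 5 and 4 and the ATF4 list 7 and 8.

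Markers of other cell types were present at both times, and several moved with time. In a bulk sample a change in the number of cells of a type and in the RNA per cell cannot be told apart. Of 12 blood genes 9 were higher and 1 lower (median 0.81), and their summed level ran from 88.2 to 110.3 CPM at 6 h and from 315.5 to 364.6 at 18 h. The globins led: Hbb-y ran from 3.38 to 5.16 CPM (median 4.4) at 6 h and from 42.1 to 53 CPM (median 43.9) at 18 h, and Hba-x rose by 2.47 ± 0.08 and Hbb-bh1 by 2.32 ± 0.06. Hba-a1 (2.69 ± 0.15) has a near-identical copy, so its counts are uncertain. The erythroid regulator Gata1 was the lower member (-0.43 ± 0.13). Of 15 endothelial genes 13 were higher and 2 lower (median 0.69), with a summed level of 432.1 to 481.6 CPM at 6 h and 518.6 to 815.9 at 18 h. Plvap (1.98 ± 0.05), the junction protein Cldn5 (1.71 ± 0.20) and the ETS factor Fli1 (1.44 ± 0.07) rose with Emcn, while Etv2 (-1.23 ± 0.14), which starts the endothelial and blood programme, and Sox17 (-0.82 ± 0.07) fell. Sox17 is also a member of the endoderm list below. The growth factor receptor Kdr (0.41 ± 0.14) and Pecam1 (0.13 ± 0.04) changed less, and neither was called once length and GC trends were removed, when the edgeR adjusted p was 0.0852 and 0.171 (up to 0.133 and 0.218 over the 24 alternatives). Kdr was also not called without CD1530 at 18 h replicate 1 (edgeR adjusted p = 0.0597). Tal1, a regulator of blood and endothelium, rose by 0.69 ± 0.15. The difference between ligands was called for 8 of the 15, and the list's median was 1.08 in CD1530 and 0.31 in AGN.

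Endoderm genes were lower in 7 of 15 and higher in 4 (median -0.10), with a summed level of 1171 to 1287 CPM at 6 h and 779.3 to 1522 at 18 h. The 2 ligands differed, with 3 higher and 8 lower within CD1530 (median -0.34) and 6 higher and 3 lower within AGN (median 0.02). A difference between ligands was called for 7 of the 15, against 2.61% of all genes. The secreted products Ttr (4.44 ± 0.29, 17 reads over the 6 libraries of 6 h and 388 over those of 18 h), Apoa1, Cer1 (1.81 ± 0.42) and Afp (1.53 ± 0.38) were the higher members. Sox17, given above with the endothelial genes, Foxa2 (-0.76 ± 0.09) and Krt8 (-0.44 ± 0.12) were lower. Krt8 went from 389 to 222 CPM in CD1530 and from 409 to 402 in AGN (means of 3 libraries, TMM over all 33). Muscle genes were higher in 5 of 8 and lower in 3 (median 1.14). Their summed level, however, ran from 51 to 60.09 CPM at 6 h and from 35.05 to 60.02 at 18 h. Mymk, the myoblast fusion protein (2.08 ± 0.33), and Myod1 (1.71 ± 0.28) rose with Myog from low levels. Myod1 held 40 reads over the 6 libraries of 6 h and 134 over those of 18 h. Mymk was at 0.151 (CD1530) and 0.159 (AGN) CPM at 6 h and 0.514 and 0.848 at 18 h (means of 3 libraries, TMM over all 33). Desmin (Des) fell from 29.9 ± 2.88 to 7.0 ± 0.459 CPM (-2.10 ± 0.07). Neural genes were higher in 5 of 13 and lower in 3 (median 0.18, with Sox1 at 1.49 ± 0.22 and Irx3 at -0.85 ± 0.08), neural crest genes in 2 of 6 and 2 (median 0.09) and genes of lateral mesoderm, limb and kidney in 5 of 10 and 2 (median 0.25, with Pax8 at 2.51 ± 0.31 and Isl1 at 1.03 ± 0.20). The largest fall in the lateral list was -0.90. Sox1 held 78 reads over the 6 libraries of 6 h and 224 over those of 18 h. In means of 3 libraries (TMM over all 33), Pax8 was at 0.14 (CD1530) and 0.11 (AGN) CPM at 6 h and 0.84 and 0.637 at 18 h. On that scale Isl1 went from 1.45 to 1.65 CPM in CD1530 and from 1.99 to 6.13 in AGN. Pluripotency genes were higher in 4 of 19 and lower in 7 (median -0.06). Their summed level stayed between 2930.0 and 3050.0 CPM at 6 h and between 2947 and 3228 at 18 h, and Pou5f1 was at 339 ± 11.9 and 346 ± 18.4 CPM (0.03 ± 0.03, not called). Members that were too low to be tested included Dcx and Neurog2 of the neural list and Nkx2-5, Osr2 and Pax2 of the lateral list, and the summed levels ran from 541.1 to 558.0 CPM at 6 h and 523.7 to 560.6 at 18 h for neural genes, 143.3 to 165.6 and 151.8 to 200.4 for neural crest genes, and 201.6 to 232.6 and 142.2 to 221.3 for the lateral list. The part of these cell types in the changes above was not tested.

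The 2 ligands shared most of the change with time. In CD1530 alone 6891 genes were called (41% of those tested, 3572 higher and 3319 lower) and in AGN alone 6549 (38.9%, 3500 higher and 3049 lower). Of these, 4866 were called in both, which is 70.6% of the CD1530 calls and 74.3% of the AGN calls, and 4821 had the same direction. The change itself differed between ligands for 439 genes (2.61%), 210 with the more positive change in CD1530 and 229 with the more positive change in AGN. For 45 of them both ligands were called, in opposite directions. Without CD1530 at 18 h replicate 1 the difference was called for 1674 genes, which included 436 of the 439, so the number of genes that differ depends on that library.

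**Figure D5:**
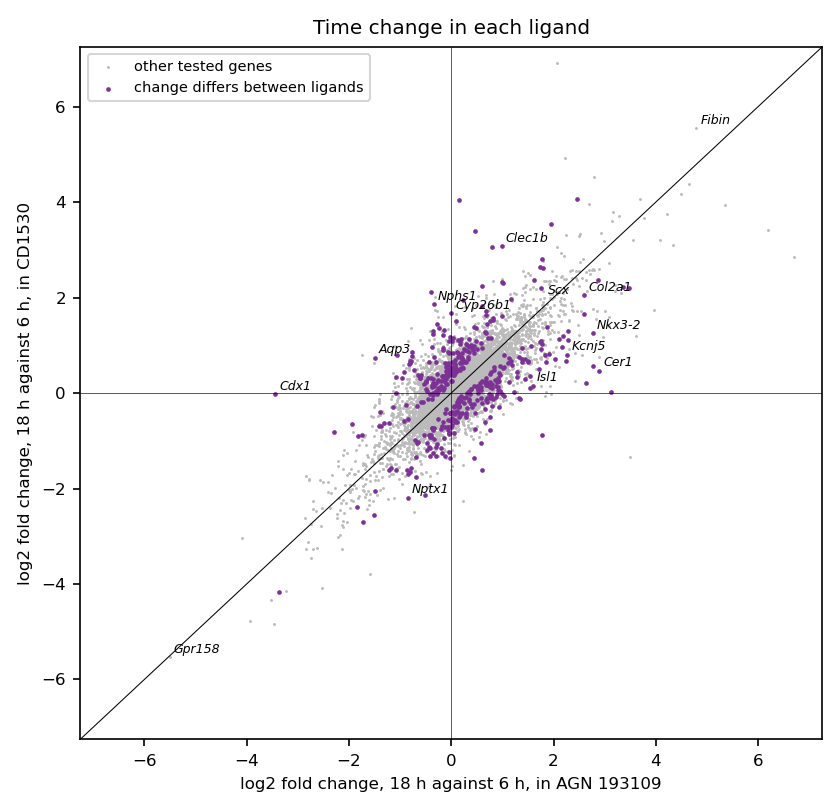
Log2 fold change of 18 h against 6 h within CD1530 (y axis) against that within AGN (x axis), 1 point per tested gene, with the 439 genes whose change differed between ligands in purple and the line of equal change. Most genes lie near the line (Pearson r across genes 0.798, and genes are not independent replicates), with Cdx1 (-0.02 in CD1530, -3.44 in AGN) and Cer1 (0.47 and 2.89) far from it on opposite sides.

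The genes with the largest differences included targets of retinoic acid. Cdx1, a caudal gene that retinoic acid and Wnt activate, was at 9.72, 10.3 and 9.76 CPM in CD1530 at 6 h and 11.5, 8.64 and 9.28 at 18 h. In AGN it was at 5.63, 5.88 and 5.62 CPM at 6 h and 0.499, 0.55 and 0.518 at 18 h. The change was thus -0.02 in CD1530 (edgeR adjusted p = 0.891) and -3.44 in AGN, a difference (CD1530 minus AGN) of 3.41 ± 0.23 (edgeR adjusted p = 1.51e-07). The retinoic acid degrading enzyme Cyp26b1 changed by 1.68 in CD1530, a difference from AGN of 1.68 ± 0.14. Differences in the same direction were found for the water channel Aqp3 (2.24 ± 0.20), nephrin (Nphs1, 2.21 ± 0.26), the platelet lectin receptor Clec1b (2.10 ± 0.41, with an adjusted p of edgeR or DESeq2 of up to 0.0564 over the alternatives), the muscle actinin Actn3 (1.72 ± 0.29), the myosin Myo1f (1.65 ± 0.17) and the lysophosphatidic acid receptor Lpar3 (1.62 ± 0.31).

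In the opposite direction, Cer1, a secreted inhibitor of Nodal, BMP and Wnt ligands, was at 21.7, 18.5 and 19.8 CPM in CD1530 at 6 h and 25.7, 29.3 and 28.1 at 18 h. In AGN its libraries held 30.2, 31.6 and 30.8 CPM at 6 h and 227, 219 and 240.0 at 18 h, with no overlap. It changed by 0.47 in CD1530 and 2.89 in AGN (difference -2.42 ± 0.09, edgeR adjusted p = 7.86e-11). Nkx3-2 rose in both ligands, by 1.25 in CD1530 and 2.77 in AGN, a difference of -1.51 ± 0.35 (edgeR adjusted p = 0.0224, up to 0.126 over the alternatives). The others were the Wnt antagonist Dkk2 (-1.48 ± 0.26), the potassium channel Kcnj5 (-1.46 ± 0.29), the homeobox gene Isl1 (-1.44 ± 0.24), the synaptic vesicle protein Sv2c (-1.43 ± 0.24), the segmentation protocadherin Pcdh8 (-1.42 ± 0.22) and the pentraxin Nptx1 (-1.34 ± 0.10). Scx changed by 1.98 in CD1530 and 1.82 in AGN, with a difference of 0.17 ± 0.07 that was not called (edgeR adjusted p = 0.319). For Tbx6 the values were -3.26 and -2.70, with a difference of -0.56 ± 0.39 (edgeR adjusted p = 0.647).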

How the data were processed

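RNA was sequenced from 3 biological replicates of each group, per the study's methods. The authors aligned reads to GRCm38 with STAR, summed them per gene with featureCounts, dropped low genes and deposited the resulting raw counts. Which annotation release was used, whether counting used strand and how reads with several alignments were handled are not given in the sources used here. Of 17120 genes, 16816 passed edgeR's filterByExpr over the 12 libraries (total counts 17.5 M to 22.8 M).

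Counts were fitted in R 4.3.3 with edgeR 4.0.16 (TMM, robust quasi-likelihood test, ligand and time as terms). A second edgeR fit with 4 group means gave the change within each ligand and the difference between them. Benjamini-Hochberg adjustment ran over all tested genes, with calls at an adjusted p-value under 0.05. The SE was derived from the log2 fold change and its F statistic. The fits were tested on simulated data. Alternatives comprised DESeq2 1.42.0, other size factors and filters, removal of length and GC trends by splines, a replicate block, all 33 libraries, and each library left out in turn. Gene lengths and GC came from GENCODE M21, which matched 17117 gene identifiers, and promoters from RefSeq.

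The comparison, the 41 gene lists and the alternatives were chosen with earlier results of these data known. Named were the 15 largest changes in each direction (mean count of at least 50, no overlap of the times, no predicted genes), the 8 largest differences between ligands in each direction, up to 4 called members of each list and the genes the study names. A few genes that fall under these rules are not reported here, and further list members were named after their values were seen. Libraries of other times entered only levels and 1 alternative. Single-cell data and other assays were not analysed here.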

Additional observations from a re-analysis of the deposited data

Results flagged for a closer look

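The change from 6 h to 18 h differed between ligands for 42 of the genes named above, by the edgeR test of the difference itself (CD1530 minus AGN, log2 scale, adjusted p under 0.05). It was more positive in CD1530 for 18: Emcn (1.61), Hpgd (1.59), Cdx1 (3.41), Col14a1 (0.74), Dhrs3 (1.23), Stra6 (0.91), Hoxb1 (1.47), Cldn5 (1.33), Etv2 (0.86), Kdr (0.87), Tal1 (0.98), Cyp26b1 (1.68), Aqp3 (2.24), Nphs1 (2.21), Clec1b (2.10), Actn3 (1.72), Myo1f (1.65) and Lpar3 (1.62). For the other 24 it was more positive in AGN: T (-0.38), Npffr1 (-1.28), Pga5 (-1.15), Mixl1 (-0.80), Fgf8 (-0.97), Eomes (-0.56), Dll3 (-1.05), Nkx3-2 (-1.51), Col2a1 (-0.55), Col9a3 (-0.99), Nkd1 (-0.38), Sfrp1 (-0.84), Fgfr2 (-0.66), Cldn6 (-0.39), Aldh1a3 (-1.07), Cer1 (-2.42), Foxa2 (-0.58), Krt8 (-0.79), Isl1 (-1.44), Dkk2 (-1.48), Kcnj5 (-1.46), Sv2c (-1.43), Pcdh8 (-1.42) and Nptx1 (-1.34).

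In 25 of 394 sets of 6 libraries, 1 for each named gene and time, the highest or lowest library lay farther from the rest than Dixon's 95% limit allows. Chance alone flags about 1 set in 20, and the 6 libraries of a time hold both ligands. CD1530 at 18 h replicate 1 was that library in 14 of them, and also in the share of counts in ribosomal protein genes, at 3.01% against 2.38% to 2.46% in the others. It was highest for Scx (502 CPM, others 429.6 to 446), Hbb-y (52.99 CPM, others 42.1 to 45.0), Npm1 (1186 CPM, others 1003 to 1043), Calr (1210.0 CPM, others 1124 to 1151) and Ttr (4.41 CPM, others 2.60 to 3.10). It was lowest for Lamb1 (455 CPM, others 531 to 567), Col4a1 (1141 CPM, others 1364 to 1472), Fn1 (1590.0 CPM, others 2560.0 to 2826), Sox6 (11.3 CPM, others 15.7 to 18), Vcan (305 CPM, others 534 to 643), Ptch1 (89.0 CPM, others 123 to 138), Il17rd (118 CPM, others 163 to 171), Utp20 (93.4 CPM, others 119.6 to 133) and Mki67 (144 CPM, others 235 to 283). The other 11 sets were scattered over 6 libraries. They were Slc7a14 (12.7 CPM, others 14.1 to 14.8) in AGN at 6 h replicate 1, Scel (2.31 CPM, others 0.929 to 1.36) and Ltbp2 (35.1 CPM, others 26.9 to 29.6) in AGN at 18 h replicate 1. Next came Mkx (10.7 CPM, others 7.85 to 8.69), Ldlrad4 (5.44 CPM, others 7.33 to 8.23), Cdkn2c (1.11 CPM, others 1.48 to 1.67) and Ccnd3 (164 CPM, others 171 to 174) in CD1530 at 6 h replicate 3, Tgfb3 (20.5 CPM, others 16.6 to 17.3) in CD1530 at 6 h replicate 2. The last were Rrp12 (99.4 CPM, others 105 to 108) and Gata1 (4.39 CPM, others 2.41 to 2.86) in AGN at 6 h replicate 2 and Pou5f1 (363 CPM, others 332 to 336) in CD1530 at 6 h replicate 1.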

How the results depend on the processing

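Of 197 named genes 181 were called in the comparison of 18 h with 6 h, and 168 of these kept call and direction in every alternative, up to 24 per gene. The other 13 lost the call in at least 1, and 13 of the genes not called were called in at least 1. Cdk1, at 0.00, became -0.10 when length and GC trends were removed without CD1530 at 18 h replicate 1, an alternative added after the data were seen. The count of changed genes was 402 against a minimum absolute log2 fold change of 1, which by construction leaves fewer genes, and ran from 8087 to 9716 with 1 library left out, where the highest came without CD1530 at 18 h replicate 1 and the next was 8336. Within CD1530 the counts ran from 5664 to 8573 and within AGN from 5372 to 8644. The difference between ligands was called for 732 genes after removal of length and GC trends, for 826 in a fit of all 33 libraries and for 1618 in the added alternative. With 1 library left out it was called for 277 (without AGN at 6 h replicate 3) to 1674 genes (without CD1530 at 18 h replicate 1), and the cause of these shifts was not tested. The biological coefficient of variation with 4 group means was 6.13%, and 2.94% without CD1530 at 18 h replicate 1. With the replicate number as a block 8605 genes changed with time and 417 differed between ligands. Same-numbered libraries deviated from their group means with correlations from -0.080 to 0.173 and not every library correlated best with its own number, so the numbers were not taken to pair the samples. Within CD1530, however, each library of 6 h correlated best with the 18 h library of its number (0.173, 0.065 and 0.11). In the other direction 18 h replicate 2 correlated best with 6 h replicate 3 (0.08). A pairing within CD1530 is thus not excluded. Genes near the counting floor, such as Gpr158 at 18 h, have the least certain fold changes.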

Other observations

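The tendon and cartilage genes can be followed beyond 18 h in the means of 3 libraries per group after TMM normalization of all 33 libraries, which belong to no comparison above. Scx was at 6.41 CPM in paraxial mesoderm, 111 (CD1530) and 120.2 (AGN) at 6 h, 446 and 429 at 18 h and 766 and 713 at day 1.5. Col2a1, the cartilage collagen, went from 11 CPM to 359.7 and 504 at 18 h and was at 386 and 596 at day 1.5. Lum, a proteoglycan that organizes collagen fibrils, was at 107 and 107 CPM at 18 h and 99.7 and 105 at day 1.5, whereas its relative Fmod was at 2.67 and 4.78 at 18 h and 42 and 97.7 at day 1.5. Apoa1, an apolipoprotein of liver and yolk sac, was at 18.1 and 7.7 CPM at 18 h and 6.59 and 1.16 at day 1.5. These values are given as descriptions, with no test.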
